A study of Rattus norvegicus with 13 samples.

Results

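Collagen chain genes were read from RNA-seq of the peripheral cornea and adjoining limboscleral tissue, taken at day 3 from rats in which limbal stem cell deficiency was modelled. In that condition the corneal epithelium loses its source of renewal and blood vessels grow into the cornea. All animals were male wild-type Lewis rats, 2 months old. The spironolactone group (3 libraries) was injected subcutaneously each day with 25 mg/kg/day of this mineralocorticoid receptor antagonist, and the vehicle group (3 libraries) was given 90% olive oil with 10% DMSO. Each library is treated as a replicate. The labels say neither that each came from its own animal nor how the deficiency was made, and p-values therefore cover only the spread from library to library, which may be technical. The members are every gene of the day 3 tables whose symbol is Col, a number, a and a number, without Col17a1: 42 of 28357 named genes. Chains Col1a2 and Col21a1 were not analysed here, so type I collagen is represented by Col1a1 alone.

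Collagens are trimers of chains wound into a triple helix. Fibrillar collagens (types I, II, III, V, XI, XXIV and XXVII) build the load-bearing fibrils of stroma and sclera, with type V held to keep corneal fibrils thin. Type IV chains form the sheet of basement membranes under the epithelium and around vessels. FACIT collagens sit on the surface of fibrils. Type VI forms beaded filaments between fibrils, and the transmembrane collagens span the plasma membrane. A remaining class held the short-chain networks of types VIII and X, the anchoring-fibril collagen VII, the multiplexins XV and XVIII, and the unclassed XXVI and XXVIII. In a wounded cornea, fibroblasts, regenerating epithelium and new vessels all deposit collagen. The comparison of spironolactone with vehicle at day 3 asked which of these chains differed in transcript level.

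Depth was 18.2 to 25.3 M expected counts per spironolactone library and 22.1 to 23.5 M per vehicle library. CPM here is a gene's count scaled to a fixed library size after TMM adjustment. Markers of stroma and epithelium were read in every library: the keratocyte proteoglycan gene Lum was at 1298 to 1572 CPM with spironolactone and at 1458 to 1528 CPM with vehicle, and the basal keratin gene Krt5 at 5532 to 7183 CPM with spironolactone and at 2863 to 4460 CPM with vehicle. Summed levels of the 8 corneal and limbal epithelial markers were 16030, 18310 and 18840 CPM with spironolactone, against 9560, 9000 and 12720 CPM with vehicle, and 7 of the 8 were higher at an unadjusted p under 0.05, against 12.2% of all genes tested. Summed levels of the 8 skeletal muscle markers measured ran the other way, at 140, 118 and 221 CPM with spironolactone and 405, 921 and 768 CPM with vehicle, and 8 of 8 were lower at that threshold, against 10.4% of all genes tested. Spironolactone replicate 3 stood apart in its 4 retina markers (80.1 CPM summed, against 1231 and 1585 CPM in the other spironolactone libraries and 1912 to 2125 CPM with vehicle). Vehicle replicate 3 stood apart in the sum of its 5 lens markers (352 CPM, against 15.0 and 31.4 CPM in the other vehicle libraries and 6.36 to 18.2 CPM with spironolactone). The lens marker Bfsp1 did not, at 5.94 CPM in vehicle replicate 3 and 5.95 CPM in spironolactone replicate 3. In bulk tissue, fewer cells of a type and less RNA per cell cannot be told apart, and the part of these differing tissue shares in the collagen values was not tested.

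Promoter windows are shown for Col4a1 with Col4a2 and for Col9a1 with Col9a2, because the results below turn on these chains and on how each compares with its partner. They come from RefSeq on the GRCr8 build, run from 250 bases before to 50 bases after the transcription start, and are given 5′ to 3′ on the gene's strand. Col4a1 lies at chr16:84885347-84885646 on the plus strand, Col4a2 at chr16:84885471-84885770 on the minus strand, Col9a1 at chr9:34081114-34081413 on the plus strand and Col9a2 at chr5:139892548-139892847 on the plus strand. Capitals mark every CCAAT and every GGGCGG on either strand, which do not overlap each other in these windows.
Col4a1: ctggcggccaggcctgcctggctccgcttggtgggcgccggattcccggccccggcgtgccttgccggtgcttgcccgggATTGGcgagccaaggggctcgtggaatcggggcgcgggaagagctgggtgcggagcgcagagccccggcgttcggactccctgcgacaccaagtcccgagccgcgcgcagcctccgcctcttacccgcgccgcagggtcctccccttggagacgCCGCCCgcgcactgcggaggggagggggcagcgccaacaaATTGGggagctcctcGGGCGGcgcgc
Col4a2: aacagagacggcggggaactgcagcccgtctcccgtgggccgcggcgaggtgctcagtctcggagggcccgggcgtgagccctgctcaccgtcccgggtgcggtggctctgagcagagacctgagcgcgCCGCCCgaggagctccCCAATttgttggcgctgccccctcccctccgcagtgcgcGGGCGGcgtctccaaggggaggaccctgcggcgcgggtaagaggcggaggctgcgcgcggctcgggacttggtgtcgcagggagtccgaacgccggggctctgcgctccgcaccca
Col9a1: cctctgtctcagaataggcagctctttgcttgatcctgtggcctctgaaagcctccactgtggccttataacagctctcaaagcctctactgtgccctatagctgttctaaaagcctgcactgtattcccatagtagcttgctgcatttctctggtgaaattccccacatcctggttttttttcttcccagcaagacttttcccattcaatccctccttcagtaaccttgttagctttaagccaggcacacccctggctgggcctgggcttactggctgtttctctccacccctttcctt
Col9a2: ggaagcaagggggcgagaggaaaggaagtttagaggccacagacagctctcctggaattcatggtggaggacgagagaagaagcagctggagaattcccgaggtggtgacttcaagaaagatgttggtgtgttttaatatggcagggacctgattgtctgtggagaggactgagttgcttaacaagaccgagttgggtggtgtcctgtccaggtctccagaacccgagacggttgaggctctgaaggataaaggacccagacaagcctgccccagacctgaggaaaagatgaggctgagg
The starts of Col4a1 and Col4a2 lie on opposite strands with 76 bases between them, so their windows share 176 bases with the same letters. This shared stretch holds 1 CCAAT and 2 GGGCGG. The Col4a1 window was 75.0% G and C and the Col4a2 window 73.7%, against 49.3% for Col9a1 and 53.0% for Col9a2, whose windows hold neither motif. RefSeq gave 36 windows for 33 of the 42 members. GGGCGG stood in 20 of these 36 windows, against 33.1% of all 33469 rat windows, CCAAT in 10 of 36 against 37.5%, and TATAAA in 2 of 36 against 14.2%. A match is a string of letters and not a bound site.

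Col3a1 and Col1a1, major chains of stromal fibrils, had the highest levels of the members in every library. Levels between genes are compared in TPM, which corrects for transcript length. Col3a1, the type III chain, had 2306, 2086 and 1943 TPM with spironolactone and 2177, 2387 and 2117 TPM with vehicle. Col1a1 followed at 1191, 1202 and 1261 TPM with spironolactone and 1213, 1563 and 1226 TPM with vehicle. The groups overlapped for each of them. The chains next in order were far lower. Averaged over the 6 libraries, Col6a2 had 227.9 TPM, Col6a1 225.7, Col5a2 169.3, Col18a1 164.1, Col4a1 156.2, Col5a1 121.4 and Col4a2 90.1 TPM. At the other end, Col19a1 and Col26a1 had 0 to 5 counts per library and were the 2 members that did not pass the filter on low counts, and Col6a4 had 6, 8 and 7 counts with spironolactone and 11, 10 and 11 with vehicle.

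**Figure D1:**
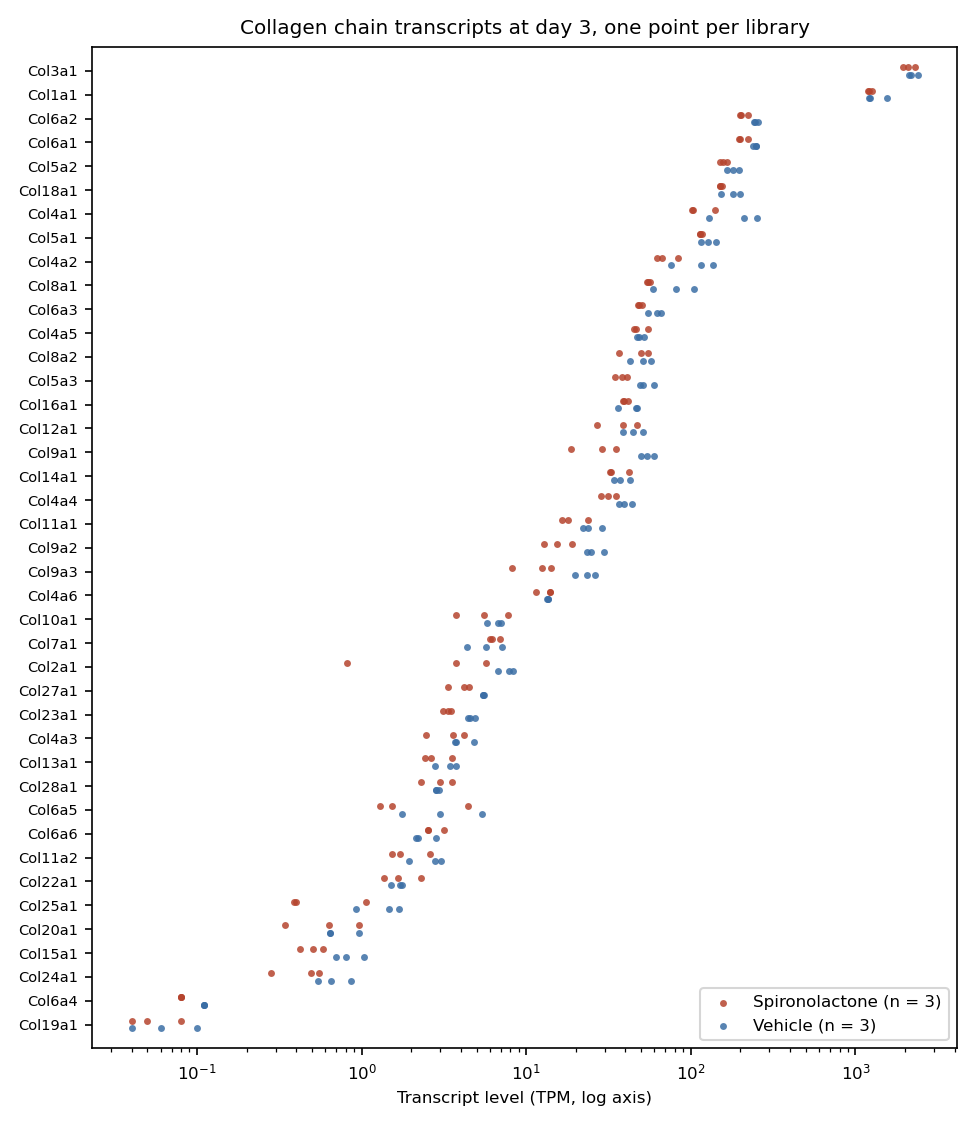
Transcript level in TPM on a log axis for 41 of the 42 collagen chain genes, ordered by mean level, with 1 point per library and spironolactone drawn above vehicle in each row; Col26a1 is left out because 1 library was at 0. Col3a1 and Col1a1 lie at 1191 TPM or above in every library, and Col6a2, next in order, between 200 and 256 TPM.

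The 42 genes together took 1.66%, 1.58% and 1.59% of all counts with spironolactone and 1.76%, 2.00% and 1.67% with vehicle, and their summed level was 5033, 4816 and 4749 TPM with spironolactone against 5354, 6087 and 5075 TPM with vehicle. Every spironolactone library lay below every vehicle library on both measures, by a small margin at vehicle replicate 3. The mitochondrial share of counts separated the groups in the same direction, at 4.85%, 4.17% and 4.56% with spironolactone and 5.13%, 5.47% and 5.48% with vehicle, and the share of the row without a gene name in the other, at 0.158% to 0.181% with spironolactone and 0.120% to 0.144% with vehicle; their part was not tested. Within the pool, Col3a1 and Col1a1 together held 69.5%, 68.3% and 67.5% of the collagen TPM with spironolactone and 63.3%, 64.9% and 65.9% with vehicle, so the remaining chains held a smaller share of the pool in each spironolactone library. Type IV chains held 6.19%, 5.77% and 5.45% of the pool with spironolactone and 8.12%, 8.13% and 6.13% with vehicle, where spironolactone replicate 1 and vehicle replicate 3 overlapped. FACIT chains held 3.30%, 3.77% and 3.43% with spironolactone and 4.49%, 4.03% and 4.15% with vehicle, with no overlap.

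No collagen chain gene passed edgeR's quasi-likelihood test at an adjusted p of 0.05, where 0% of the 14762 genes tested passed. Read without adjustment, 13 of the 40 tested members were lower with spironolactone at p under 0.05, against 10.4% of all genes, and 0 of 40 were higher, against 12.2% of all genes. Log2 fold changes were negative for 34 of 40 members, against 51.6% of all genes, with a median of -0.20 over the members and -0.01 over all genes. In 13 of 40 members all spironolactone libraries lay below all vehicle libraries, against 16.1% of all genes, and in 0 of 40 above them, against 16% of all genes. DESeq2 called 7 of 40 lower (Col4a2, Col5a3, Col6a3, Col8a1, Col9a1, Col9a2 and Col9a3) against 3.34% of all genes, and 0 of 40 higher against 5.76%. The count of 13 was 6 without vehicle replicate 2, and 19 without the replicates 3 of both treatments. In that last fit, edgeR called 4 of 40 members lower (Col4a2, Col8a1, Col9a1 and Col9a3), against 2.61% of all genes, and without vehicle replicate 3 alone it called 3 of 39 (Col4a1, Col4a2 and Col8a1), against 1.55%.

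**Figure D2:**
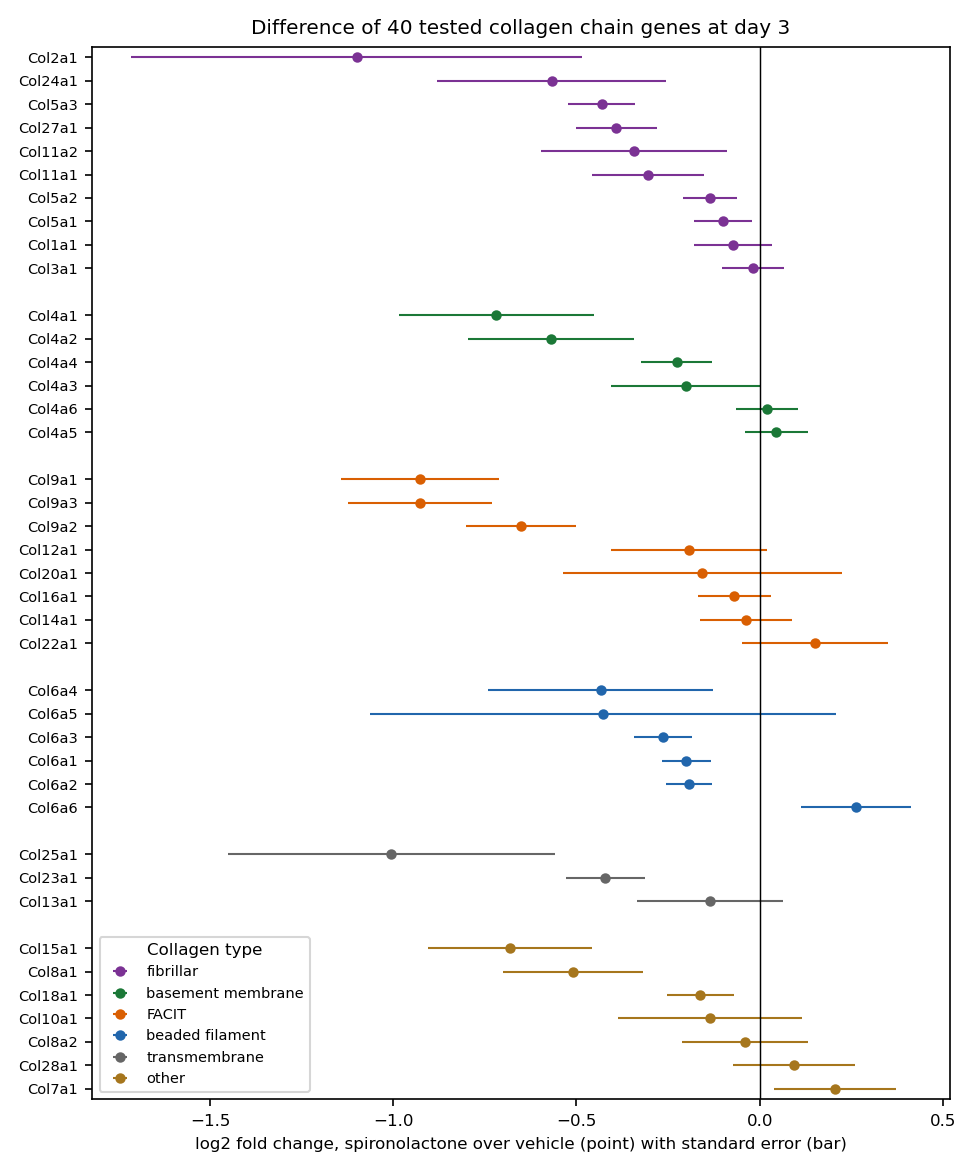
Log2 fold change of spironolactone over vehicle for the 40 tested collagen chain genes, grouped and coloured by type; points are edgeR estimates and bars 1 standard error. Of the 40 points 34 lie left of 0, from -1.10 for Col2a1 to 0.26 for Col6a6.

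Among fibrillar chains, Col3a1 and Col1a1 had log2 fold changes near 0. In Col5a3, Col27a1 and Col2a1 all spironolactone libraries lay below all vehicle libraries, against 16.1% of all genes. Whether the chains differed from one another was not tested. All 10 tested fibrillar genes had negative log2 fold changes, against 51.6% of all genes, with a median of -0.32. At an unadjusted p under 0.05, 2 of 10 were lower (Col5a3 and Col27a1), against 10.4% of all genes. On the log2 scale, Col3a1 differed by -0.02 (SE 0.085; adjusted p = 0.912 by edgeR) and Col1a1 by -0.07 (SE 0.11; adjusted p = 0.702 by edgeR). The sign of each was positive in the fit without vehicle replicate 2. The type V chains that assemble with type I, Col5a1 and Col5a2, had -0.10 (SE 0.078) and -0.14 (SE 0.074), and their ratio in TPM was 0.728 ± 0.025 with spironolactone and 0.708 ± 0.018 with vehicle (SD, n = 3 each). The 8 keratocyte and fibroblast markers measured other than Col1a1 summed to 5237, 4534 and 4526 CPM with spironolactone and 4791, 4835 and 4796 CPM with vehicle, with overlap. At an unadjusted p under 0.05, 2 of the 8 were lower (Thy1 and Fap) and 1 was higher (Aldh3a1), against 10.4% and 12.2% of all genes. The 5 myofibroblast markers summed to 3646, 2940 and 3213 CPM with spironolactone and 4080, 4214 and 3648 CPM with vehicle. Of the 5, 2 were lower at that threshold (Postn and Fn1), against 10.4% of all genes. The log2 fold changes of the others were 0.03 for Acta2, 0.09 for Tagln and -0.14 for Tnc, with overlap. None of these markers was at 0, and their part in the fibrillar values was not tested.

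Col5a3 encodes the third chain of type V collagen. It had 166, 153 and 140 CPM with spironolactone, against 229, 189 and 200 CPM with vehicle. The groups did not overlap, and the log2 fold change was -0.43 (SE 0.092, adjusted p = 0.0747 by edgeR and 0.00119 by DESeq2). Col27a1, a fibrillar chain best known from cartilage, had 12.5, 16.4 and 15.6 CPM with spironolactone and 19.2, 19.3 and 19.8 CPM with vehicle, again without overlap (log2 fold change -0.39, SE 0.11, adjusted p = 0.111 by edgeR). Col24a1, a rare fibrillar chain, averaged 1.16 ± 0.379 CPM with spironolactone and 1.75 ± 0.417 CPM with vehicle (SD, n = 3 each), and the groups overlapped.

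Types II, IX and XI form the thin fibrils of cartilage and of the vitreous body of the eye, and the type IX chains had the lowest adjusted p-values of the 8 tested FACIT members. Col9a1 had 71.6, 86.4 and 47.1 CPM with spironolactone, against 142, 128 and 121 CPM with vehicle. Col9a2 had 29.4, 35.8 and 24.6 CPM with spironolactone, against 53.3, 44.8 and 43.1 CPM with vehicle. Col9a3 had 16.0, 17.7 and 10.6 CPM with spironolactone, against 31.6, 28.4 and 24.4 CPM with vehicle. For each type IX chain the highest spironolactone library lay below the lowest vehicle library, a pattern seen in 16.1% of all genes. Spironolactone replicate 3 was the lowest of the 6 for each chain. The log2 fold changes were -0.93 (SE 0.22, adjusted p = 0.0882 by edgeR) for Col9a1, -0.65 (SE 0.15, adjusted p = 0.0819 by edgeR) for Col9a2 and -0.93 (SE 0.20, adjusted p = 0.0763 by edgeR) for Col9a3. By DESeq2 the adjusted p was 1.22e-04 for Col9a1, 0.00165 for Col9a2 and 3.51e-04 for Col9a3.

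Ratios to Col9a2 were lower in the spironolactone libraries for both other type IX chains, without a test. Col9a1 stood at 1.87, 1.85 and 1.47 times Col9a2 in TPM with spironolactone and at 2.03, 2.19 and 2.14 times with vehicle. Col9a3 stood at 0.813, 0.737 and 0.643 times Col9a2 with spironolactone and at 0.884, 0.945 and 0.845 times with vehicle. Neither ratio overlapped between the groups, though 0.813 and 0.845 lay close for Col9a3, and spironolactone replicate 3 was the lowest in each. Col9a2 thus had the smaller difference of the type IX chains, and the difference between the chains was not tested.

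Col2a1, the type II chain, had 11.2, 16.8 and 2.45 CPM with spironolactone and 23.6, 22.4 and 19.5 CPM with vehicle. The groups did not overlap, but the value in spironolactone replicate 3 lay far below the others, and the log2 fold change of -1.10 (SE 0.62, adjusted p = 0.341 by edgeR) was -0.64 without that library and -1.69 without spironolactone replicate 2. Col11a1, the chain of type XI that joins these fibrils, had 84.5, 120 and 93.1 CPM with spironolactone and 109, 141 and 118 CPM with vehicle, with overlap (log2 fold change -0.30, SE 0.15, adjusted p = 0.289 by edgeR). Its partner Col11a2 had -0.34 (SE 0.25).

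Retina markers stood beside these values without passing the test. For all 4 (Gnat1, Pde6b, Rbp3 and Rcvrn) the spironolactone libraries lay below the vehicle libraries without overlap, against 16.1% of all genes. At an unadjusted p under 0.05, 0 of 4 were lower, against 10.4% of all genes. None of the 4 markers was at 0, and their sum was 80.1 to 1585 CPM with spironolactone and 1912 to 2125 CPM with vehicle. The retina sum was 1585 CPM in spironolactone replicate 2, where Col9a1 was at 86.4 CPM, and 80.1 CPM in spironolactone replicate 3, where Col9a1 was at 47.1 CPM. Without the replicates 3 of both treatments, the log2 fold changes were -0.77 for Col9a1 (adjusted p = 0.0168 by edgeR), -0.58 for Col9a2 (adjusted p = 0.0507) and -0.82 for Col9a3 (adjusted p = 0.0134). In that fit 2.61% of all genes were called lower. The retina sum in the libraries kept was 1231 and 1585 CPM with spironolactone and 2125 and 1912 CPM with vehicle, still without overlap. Of 5 cartilage markers, 4 were tested and 0 were lower at an unadjusted p under 0.05, against 10.4% of all genes. The 5 cartilage markers summed to 43.5, 45.8 and 45.6 CPM with spironolactone and 51.8, 58.3 and 41.7 CPM with vehicle. The cartilage matrilin gene Matn1 was at 0 in 4 of 6 libraries. The part of retinal or cartilage RNA in these values was not tested.

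**Figure D3:**
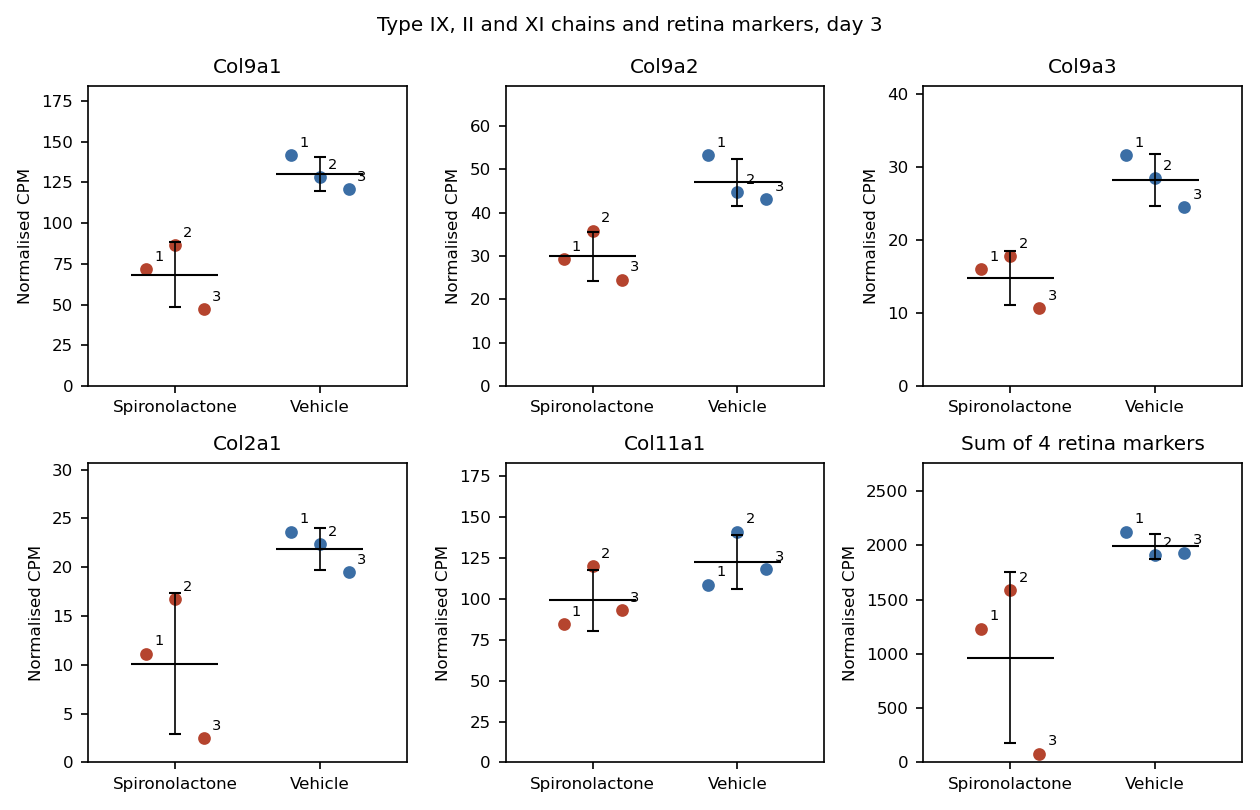
Normalised CPM of Col9a1, Col9a2, Col9a3, Col2a1 and Col11a1 and the summed CPM of 4 retina markers, with spironolactone left of vehicle; points are libraries labelled by replicate number, and bars give the mean and SD of 3 libraries. Spironolactone replicate 3 is the lowest library for the type IX chains, Col2a1 and the retina sum, while the Col11a1 groups overlap.

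None of the other FACIT chains differed beyond its spread. Col16a1, the FACIT member with the highest mean level, had 134, 134 and 145 CPM with spironolactone and 154, 156 and 122 CPM with vehicle (log2 fold change -0.07, SE 0.10, adjusted p = 0.699 by edgeR). Col12a1 and Col14a1, which coat type I fibrils of the corneal stroma, differed by -0.19 (SE 0.21) for Col12a1 and by -0.04 (SE 0.12) for Col14a1 on the log2 scale. Col12a1 spread widely, from 192 to 337 CPM with spironolactone and from 265 to 347 CPM with vehicle. Col22a1, known from muscle-tendon junctions, had 0.15 (SE 0.20), and Col20a1 -0.16 (SE 0.38) at 0.958 to 2.75 CPM with spironolactone and 1.74 to 2.64 CPM with vehicle.

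Of the 6 basement membrane chains, Col4a1 and Col4a2 were lower with spironolactone at an unadjusted p under 0.05, against 10.4% of all genes. The others were not past that threshold. Col4a1 and Col4a2 form the type IV trimer found in nearly all basement membranes, those of vessels included, and are transcribed from the shared start region printed above. Col4a1 had 619, 445 and 448 CPM with spironolactone, against 877, 1059 and 551 CPM with vehicle. Col4a2 had 271, 216 and 204 CPM with spironolactone, against 358, 427 and 240 CPM with vehicle. In both genes the groups overlapped through spironolactone replicate 1 and vehicle replicate 3 alone. The log2 fold change was -0.72 for Col4a1 (SE 0.27, adjusted p = 0.191 by edgeR) and -0.57 for Col4a2 (SE 0.23, adjusted p = 0.213 by edgeR and 0.0437 by DESeq2). Without vehicle replicate 3, the values were -0.93 (adjusted p = 0.0474 by edgeR) and -0.75 (adjusted p = 0.0460), and without vehicle replicate 2 they were -0.49 (adjusted p = 0.448) and -0.36 (adjusted p = 0.479). Without the replicates 3 of both treatments, they were -0.86 (adjusted p = 0.0645) and -0.69 (adjusted p = 0.0448). Col4a1 stood at 1.70, 1.53 and 1.63 times Col4a2 in TPM with spironolactone and at 1.82, 1.84 and 1.71 times with vehicle, with vehicle replicate 3 close to spironolactone replicate 1.

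Of the 7 blood endothelial markers, Plvap, Erg and Emcn were lower beside this pair at an unadjusted p under 0.05, against 10.4% of all genes, and the other 4 did not pass. All 7 markers (Cdh5, Kdr, Plvap, Erg, Emcn, Tie1 and Tek) had negative log2 fold changes with a median of -0.42, none was at 0, and the sum was 454, 402 and 344 CPM with spironolactone against 539, 633 and 477 CPM with vehicle. The order of the vehicle libraries was the same in Col4a1, Col4a2 and the endothelial sum, with replicate 2 highest and replicate 3 lowest. That order was not particular to them, since Col8a1 and Col18a1 had it too. The sum of the 8 epithelial markers had the reverse order, at 9560, 9000 and 12720 CPM. The 5 pericyte and smooth muscle markers summed to 753, 815 and 739 CPM with spironolactone and 686, 828 and 793 CPM with vehicle, with overlap. At an unadjusted p under 0.05, 1 of the 5 was lower (Des) and 0 higher, against 10.4% and 12.2% of all genes. The part of endothelial or pericyte RNA in the type IV values was not tested.

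Col4a3, Col4a4, Col4a5 and Col4a6 have a narrower distribution, in specialised and epithelial basement membranes. Col4a4 had 103, 124 and 112 CPM with spironolactone, against 148, 127 and 123 CPM with vehicle, with overlap at spironolactone replicate 2 (log2 fold change -0.23, SE 0.096, adjusted p = 0.222 by edgeR). Its partner Col4a3 had far fewer transcripts, at 0.107 ± 0.018 of the Col4a4 TPM with spironolactone and 0.102 ± 0.0080 with vehicle (SD, n = 3 each), and a log2 fold change of -0.20 (SE 0.20). Col4a5 had 195, 235 and 200 CPM with spironolactone and 194, 200 and 218 CPM with vehicle. Its log2 fold change was 0.05 (SE 0.085, adjusted p = 0.77 by edgeR), and that of its partner Col4a6 was 0.02 (SE 0.084, adjusted p = 0.90). Whether the pairs differ from one another was not tested. Beside these chains, the 8 epithelial markers summed to 16030 to 18840 CPM with spironolactone and 9000 to 12720 CPM with vehicle, and their part was not tested.

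**Figure D4:**
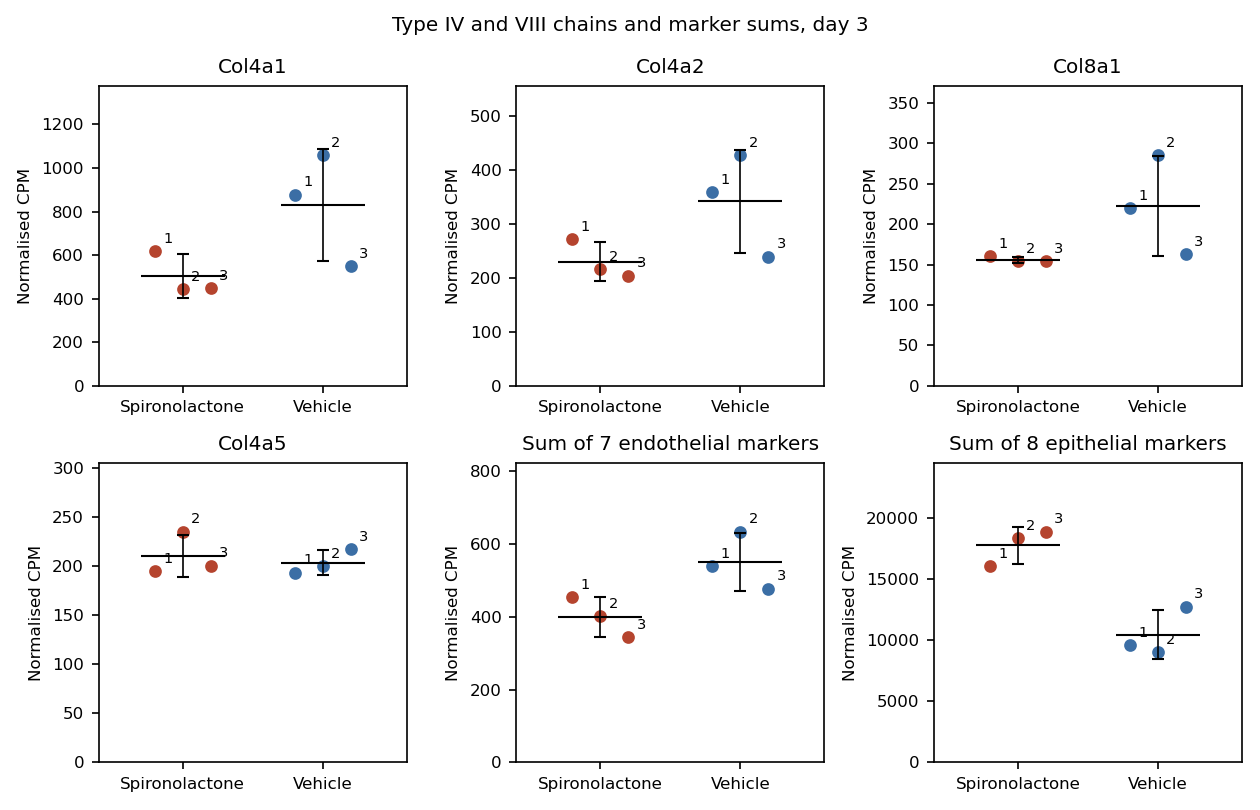
Normalised CPM of Col4a1, Col4a2, Col8a1 and Col4a5, and the summed CPM of 7 endothelial and 8 epithelial markers, with spironolactone left of vehicle; points are libraries labelled by replicate number, and bars give the mean and SD of 3 libraries. Vehicle replicate 3 lies near the spironolactone libraries for Col4a1, Col4a2 and Col8a1, and the Col4a5 groups overlap.

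The beaded filament chains Col6a1, Col6a2 and Col6a3, which assemble into the type VI trimer of most connective tissue, were each lower with spironolactone at an unadjusted p under 0.05. These were 3 of the 6 tested beaded filament members, against 10.4% of all genes. Col6a2 had 488, 476 and 539 CPM with spironolactone, against 560, 589 and 569 CPM with vehicle. Col6a1 had 389, 392 and 443 CPM with spironolactone, against 454, 472 and 481 CPM with vehicle. Col6a3, the large chain, had 296, 297 and 313 CPM with spironolactone, against 325, 366 and 396 CPM with vehicle. None of these 3 chains overlapped between the groups, where 16.1% of all genes were lower without overlap. Spironolactone replicate 3 lay closest to vehicle in each chain. The log2 fold changes were -0.19 (SE 0.063, adjusted p = 0.141 by edgeR) for Col6a2, -0.20 (SE 0.067, adjusted p = 0.148) for Col6a1 and -0.26 (SE 0.079, adjusted p = 0.121) for Col6a3. Col6a1 stood at 0.988 ± 0.018 times Col6a2 in TPM with spironolactone and 0.993 ± 0.029 times with vehicle, and Col6a3 at 0.236 ± 0.0089 and 0.246 ± 0.023 times (SD, n = 3 each). The ratios of the chains overlapped between groups.

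The alternative type VI chains Col6a4, Col6a5 and Col6a6 were far lower in level, and whether they differed from the other chains in their response was not tested. Col6a6 had the highest log2 fold change of the 40 members, 0.26 (SE 0.15; adjusted p = 0.335 by edgeR), and averaged 12.4 ± 1.58 CPM with spironolactone and 10.4 ± 1.74 CPM with vehicle (SD, n = 3 each). Col6a5 ran from 6.85 to 23.6 CPM with spironolactone and from 9.02 to 27.2 CPM with vehicle, a spread wider than any group difference. Col6a4 was read from 6 to 8 counts per spironolactone library and 10 or 11 per vehicle library, so its values rest on few reads.

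Transmembrane chains were rare, and of the 3 Col23a1 alone was lower at an unadjusted p under 0.05, against 10.4% of all genes. Col23a1, found on epithelial cells among others, had 6.09, 5.36 and 5.90 CPM with spironolactone, against 8.09, 7.57 and 7.54 CPM with vehicle (log2 fold change -0.42, SE 0.11, adjusted p = 0.0947 by edgeR). Col25a1, needed in mice for motor axons to innervate muscle, had 0.338, 0.926 and 0.350 CPM with spironolactone and 1.2, 1.39 and 0.801 CPM with vehicle. These values rest on 6 to 31 counts per library, the groups overlapped, and the log2 fold change was -1.01 (SE 0.45, adjusted p = 0.237 by edgeR), or -1.70 without spironolactone replicate 2. Col13a1, a collagen of neuromuscular junctions, had 3.61, 3.91 and 5.35 CPM with spironolactone and 4.81, 5.33 and 4.00 CPM with vehicle, with overlap (log2 fold change -0.14, SE 0.20, adjusted p = 0.704 by edgeR). Skeletal muscle markers, at 118 to 221 CPM summed with spironolactone and 405 to 921 CPM with vehicle, were lower beside the last 2 genes, and their part was not tested. Col17a1, the transmembrane collagen of hemidesmosomes that the definition leaves out, lay the other way at 747, 809 and 829 CPM with spironolactone and 444, 396 and 504 CPM with vehicle (log2 fold change 0.83, SE 0.095, adjusted p = 0.0649 by edgeR).

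Of the 7 remaining chains tested, Col8a1 and Col15a1 were lower with spironolactone at an unadjusted p under 0.05, against 10.4% of all genes. Col8a1, a short chain of Descemet's membrane and of vessel walls, had 161, 154 and 154 CPM with spironolactone, against 220, 285 and 163 CPM with vehicle. The spironolactone libraries lay close together, just below vehicle replicate 3, and the log2 fold change was -0.51 (SE 0.19, adjusted p = 0.19 by edgeR and 0.0432 by DESeq2). It was -0.68 without vehicle replicate 3 (adjusted p = 0.0316 by edgeR), -0.68 without the replicates 3 of both treatments (adjusted p = 0.0367) and -0.28 without vehicle replicate 2 (adjusted p = 0.384). Its partner Col8a2 differed by -0.04 (SE 0.17) on the log2 scale, and the Col8a1 to Col8a2 ratio in TPM overlapped at 0.974 to 1.54 with spironolactone and 1.38 to 1.82 with vehicle.

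Col15a1, a multiplexin of capillary and muscle basement membranes, had 1.75, 1.97 and 1.45 CPM with spironolactone, against 2.61, 3.40 and 2.32 CPM with vehicle (log2 fold change -0.68, SE 0.22, adjusted p = 0.145 by edgeR). Col18a1, whose C-terminal fragment is the anti-angiogenic endostatin, had 515, 489 and 498 CPM with spironolactone and 567, 626 and 487 CPM with vehicle, with overlap at vehicle replicate 3 (log2 fold change -0.16, SE 0.092, adjusted p = 0.332 by edgeR). Col7a1, the anchoring-fibril chain beneath the epithelium, differed by 0.21 (SE 0.17) on the log2 scale, the short chain Col10a1 by -0.13 (SE 0.25) and Col28a1 by 0.09 (SE 0.17).

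**Figure D5:**
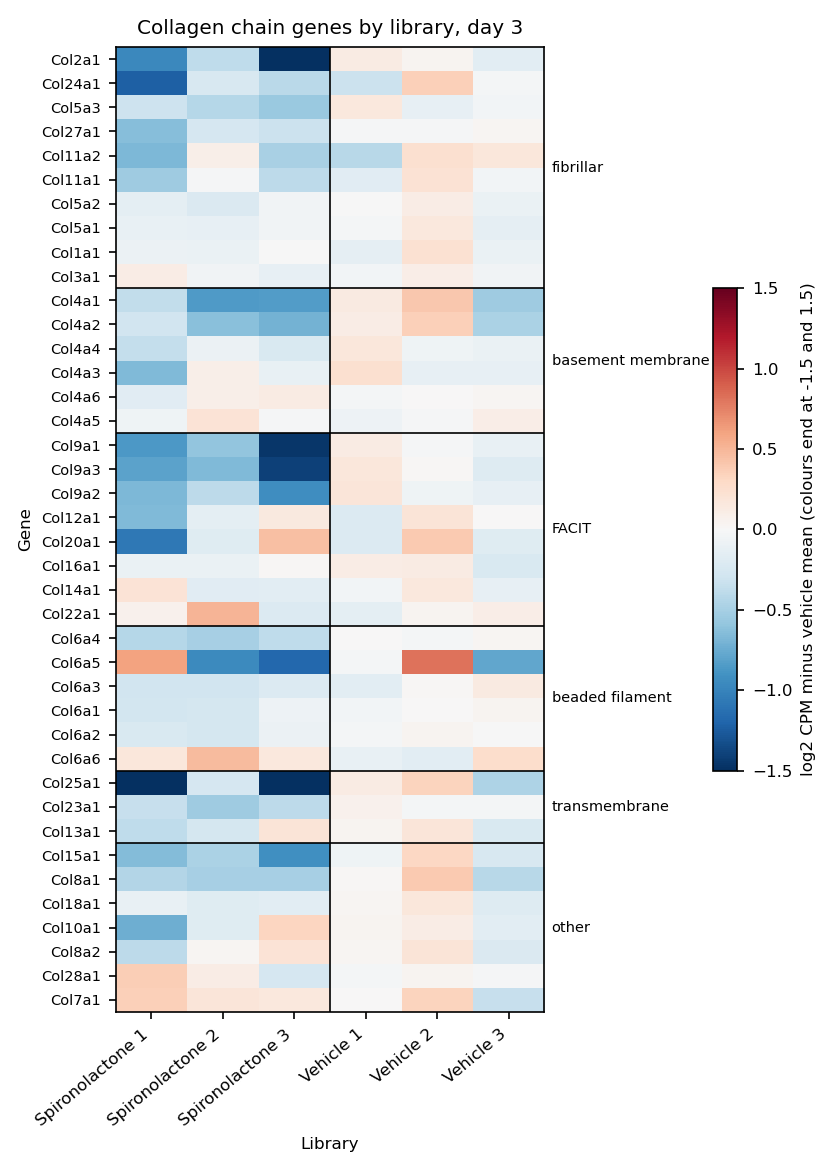
Log2 normalised CPM of the 40 tested collagen chain genes in each library minus the mean of the 3 vehicle libraries, with spironolactone libraries left of vehicle and rows grouped by type; blue is below and red above the vehicle mean. The Col9a1, Col9a2 and Col9a3 rows are blue in all spironolactone libraries, and in the Col4a1, Col4a2 and Col8a1 rows vehicle replicate 3 is also blue.

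Genes that make, export, sense and break down collagen were read from lists chosen with earlier results of these data known. Of the 19 genes that hydroxylate, glycosylate or fold procollagen, 5 were lower and 1 higher at an unadjusted p under 0.05, against 10.4% and 12.2% of all genes, and 16 of 19 log2 fold changes were negative with a median of -0.15. Plod2, the lysyl hydroxylase that prepares telopeptides for cross-linking, had 71.0, 59.2 and 70.9 CPM with spironolactone, against 109, 126 and 83.5 CPM with vehicle (log2 fold change -0.66, SE 0.16, adjusted p = 0.0861 by edgeR). Serpinh1, the procollagen chaperone HSP47, had 820, 719 and 830 CPM with spironolactone, against 955, 951 and 856 CPM with vehicle (log2 fold change -0.22, SE 0.078, adjusted p = 0.165 by edgeR). Neither gene's groups overlapped, nor did those of Fkbp14, a prolyl isomerase of the endoplasmic reticulum, at -0.25 (SE 0.075, adjusted p = 0.12 by edgeR). These were the 3 of 19 genes that were lower without overlap, against 16.1% of all genes.

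Of 10 tested genes of procollagen export and propeptide cleavage, 3 were lower and 0 higher at an unadjusted p under 0.05, against 10.4% and 12.2% of all genes. Tll1, a tolloid protease that trims C-propeptides, had 9.47, 9.18 and 6.10 CPM with spironolactone, against 13.9, 14.0 and 12.9 CPM with vehicle (log2 fold change -0.72, SE 0.17, adjusted p = 0.0819 by edgeR). Adamts3, which removes N-propeptides, differed by -0.50 (SE 0.21) on the log2 scale and the coat protein gene Sec23a by -0.13 (SE 0.056). Of 8 tested collagen receptor genes, 1 was lower and 2 higher at that threshold, where 10.4% of all genes were lower and 12.2% higher. Ddr1, the discoidin receptor of epithelia, had 227, 251 and 234 CPM with spironolactone, against 198, 212 and 192 CPM with vehicle (log2 fold change 0.24, SE 0.062, adjusted p = 0.0961 by edgeR), and Itga2 had 0.25 (SE 0.077). Itga1, an integrin chain that binds type IV collagen, had 22.9, 17.6 and 17.7 CPM with spironolactone and 34.5, 40.4 and 20.9 CPM with vehicle, with overlap (log2 fold change -0.72, SE 0.25, adjusted p = 0.171 by edgeR).

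Of 10 genes of collagen degradation, 3 were lower and 0 higher at an unadjusted p under 0.05, against 10.4% and 12.2% of all genes, and the median log2 fold change was -0.07. The neutrophil collagenase gene Mmp8 had 0.620, 0.322 and 0.550 CPM with spironolactone, against 1.58, 1.84 and 1.05 CPM with vehicle (log2 fold change -1.60, SE 0.35, adjusted p = 0.0758 by edgeR). The collagenase gene Mmp13 had 8.12, 6.85 and 4.45 CPM with spironolactone and 27.2, 19.7 and 7.21 CPM with vehicle, with overlap at vehicle replicate 3 (log2 fold change -1.48, SE 0.51, adjusted p = 0.177 by edgeR). Fap, a fibroblast surface protease, had -0.23 (SE 0.090). The 5 neutrophil markers, which include Mmp8, summed to 16.6 to 25.5 CPM with spironolactone and 27.9 to 35.1 CPM with vehicle. At an unadjusted p under 0.05, 3 of 5 were lower, Mmp8 among them, against 10.4% of all genes. The part of neutrophil RNA in these values was not tested.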

How the data were processed

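Expected counts, TPM and effective lengths came from the authors' deposited RSEM gene tables of the 6 day 3 libraries. Tools named in the submitters' processing notes, without roles, were Picard, DRAGEN, edgeR 3.28.0, DESeq2 1.26.0, RSEM 1.2.28, STAR 2.5.3a, fastp and FastQC, with the builds rn6 and Rnor_6.0. The day 7 tables carry gene IDs with no names and were not used here. Strand use in counting is not given, so overlapping genes, like related chains, may share reads.

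The deposited expected counts were rounded to whole numbers. A row that names no gene (0.120% to 0.181% of counts) was left out. Genes were filtered with filterByExpr (at least 10 counts), and edgeR 4.0.16 in R 4.3.3 gave TMM-scaled quasi-likelihood tests with Benjamini-Hochberg adjustment over 14762 genes, checked on simulated counts. SE is the size of the log2 fold change over the square root of F. TPM values deposited by the authors were used for levels between genes and for ratios of chains. Libraries of a group differed beyond sampling noise (chi-square per gene 7.91 to 23.7), and no batch is labelled.

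Alternatives were DESeq2 1.42.0, limma-voom (limma 3.58.1), RLE factors, 2 other filters, effective-length offsets, a replicate block, left-out libraries and log2(TPM + 0.1). Values per library are given for the member of each type with the highest mean TPM and the 3 with the smallest p, and for pathway lists 3 genes each are named by smallest p; partner chains are given beside them, and other genes with values per library were chosen after their values were seen. Of the listed pathway and marker genes, 2 were matched through RefSeq synonyms and 4 were not analysed here. Another listed marker is not reported here and is in no sum. The members, types and lists were chosen with earlier results of these data known.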

Additional observations from a re-analysis of the deposited data

How the results depend on the processing

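EdgeR's count of 0 called genes was 148 without the filter, 1344 by DESeq2, 1040 without the replicates 3 of both treatments and 0 to 781 with 1 library left out, and it stayed at 0 under RLE factors, the 1 CPM filter, limma-voom and effective-length offsets. Title numbers were not taken as pairs, since deviations of same-numbered libraries correlated at 0.09, -0.08 and 0.05. With the replicate number as a block the count was also 0, with 15 collagen chain genes lower at an unadjusted p under 0.05 (13 without the block) and a median log2 fold change of -0.22; 2 of the 3 spironolactone libraries correlated best with the vehicle library of their own number. With 1 library left out, the count of 13 lower members ran from 6 to 13 and the count of 0 higher members from 0 to 1, and without the replicates 3 of both treatments 1 member was higher. The median log2 fold change of the members moved by less than the SD of the vehicle libraries (0.107) under each alternative run, log2(TPM + 0.1) included. The sign depended on the library left out for 12 chains, none past the threshold: Col10a1 (-0.42 to 0.086), Col14a1 (-0.17 to 0.059), Col16a1 (-0.16 to 0.0039), Col1a1 (-0.14 to 0.064), Col20a1 (-0.54 to 0.14), Col22a1 (-0.072 to 0.31), Col28a1 (-0.058 to 0.24), Col3a1 (-0.088 to 0.042), Col4a5 (-0.042 to 0.11), Col4a6 (-0.032 to 0.11), Col6a5 (-1.20 to 0.087) and Col8a2 (-0.18 to 0.11). Without the replicates 3 of both treatments, Col3a1 was at 0.011 and Col4a6 at -0.011. The cause of these shifts was not tested. Depth limits Col6a4, at 6 to 11 counts per library, and Col25a1, at 6 to 31.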
